A study of Mus musculus with 20 samples.

Results

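Proximal tubule S3 cells are the cells that carry the cluster name PT S3 in the annotation of mouse kidney cells deposited with this series. They were selected by that name alone, through the cell names that the annotation, the treatment labels and the map coordinates share. They numbered 17210 of 113579 cells in 18 libraries, or 15.2%, and formed 1 of 18 clusters. The S3 segment is the last, straight part of the proximal tubule, which runs from the deep cortex into the outer stripe of the outer medulla. Its cells secrete organic anions and other solutes, depend on mitochondrial energy supply and lie where oxygen tension is low even in the resting kidney, and they are known as a site of early damage in ischemic kidney injury. Slc22a30 and Slc7a13, transporter genes that mark these cells, were not analysed here, because the files used hold names and coordinates of cells and no expression, so that the cluster name could not be checked against its markers.

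The kidneys came from male C57BL/6J mice of 10 to 12 weeks. Both renal pedicles were clamped for 23 min (IRI short) or 30 min (IRI long), and kidneys were dissociated into single cells 1, 3 or 14 d later, which gave 2 libraries per duration and day beside 6 Control libraries. A second annotation covers 136794 cells of 20 libraries in 19 clusters, adding 1 library of IRI long at 14 d with VX765 (100 mg/kg) and 1 with Liproxstatin (10 mg/kg), an inhibitor each of pyroptosis and ferroptosis injected 30 min before ischemia and every 24 h thereafter. Each library was taken as 1 mouse and is called here by the prefix of its cell names. The labels describe a sham operation with exposed but unclamped pedicles, and the label Control does not say whether its mice had it.

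Libraries held 2064 to 14320 cells, and the depth behind a PT S3 value is the number of these cells, from 48 in IRF7 (IRI long 3d) to 6185 in Scl (Control). Of the PT S3 cells 12372 came from Control, 2918 from IRI short and 1920 from IRI long. Scl alone held 35.9% of all PT S3 cells, so that groups were compared over libraries and not over cells. By the cell barcodes that libraries share, 5 Control libraries formed one set (A), and the Control library norm5, all 12 IRI libraries and both inhibitor libraries formed another (B). Among the 18 libraries the number of shared barcodes per 1000000 pairs of cells was 0.977 to 1.66 within set A, 0.0746 to 0.529 within set B and at most 0.123 between a library of set A and one of set B. Among PT S3 cells, 45 barcodes were shared within set A, 3 within set B and 1 between the sets. Values against norm5 alone are therefore given beside the comparisons with Control.

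PT S3 cells were a large part of Control kidneys and a small part of kidneys after ischemia. In Control libraries they made up 43.2% (Scl), 38.6% (norm2), 29.3% (norm3), 28.1% (norm4), 27.0% (norm1) and 11.5% (norm5) of the cells, with a mean of 29.6% ± 11.0 (SD, n = 6). PT S3 was the largest of the 18 clusters in 5 of these libraries and ranked 4 in norm5. After short ischemia the values were 6.05% at 1 d (IRF2), 2.45% and 8.19% at 3 d (IRF11, IRF3) and 10.8% and 8.01% at 14 d (IRF10, IRF8). After long ischemia they were 5.00% and 4.21% at 1 d (IRF1, IRF5), 4.14% and 2.33% at 3 d (IRF4, IRF7) and 9.55% and 5.06% at 14 d (IRF12, IRF9). The means were 6.80% ± 2.86 after short and 5.05% ± 2.42 after long ischemia (SD, n = 6 each), and no IRI library reached the lowest Control library. The margin is small there, since the 95% binomial (Clopper-Pearson) interval of norm5, 10.7 to 12.3%, overlaps that of IRF10, 10.2 to 11.4%, and these intervals cover counting error only.

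**Figure D1:**
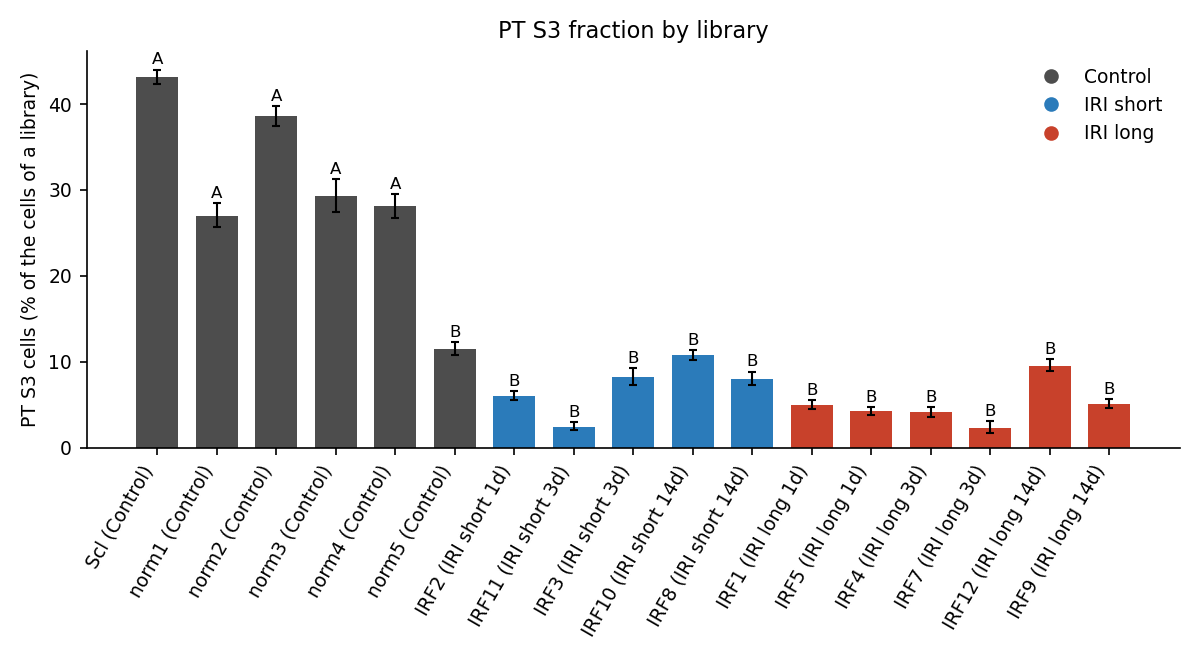
PT S3 cells as percent of all cells of a library (y axis) in 6 Control, 5 IRI short and 6 IRI long libraries (x axis, library name with group and day). Bars are the values, error bars exact 95% binomial intervals, and the letter above a bar is the barcode set: the 5 Control libraries of set A lie between 27.0 and 43.2%, and the libraries of set B shown, norm5 at 11.5% included, lie below them.

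On the logit scale, the natural logarithm of the ratio of PT S3 to all other cells, the fraction fell in both IRI groups. With limma over all 18 clusters it changed by -1.78 (standard error 0.30, adjusted p = 3.32e-05) in IRI short and by -2.09 (standard error 0.30, adjusted p = 3.3e-06) in IRI long. PT S3 was 1 of 3 clusters that fell in IRI short, or 16.7% of the clusters tested, the others being PT S1 (the proximal convoluted tubule) and IC (intercalated cells of the collecting duct). In IRI long 33.3% of the clusters fell, that is all 6 tubule clusters. By the size of the change PT S3 ranked 6 of 18 in IRI short and 8 of 18 in IRI long, and the median change over all clusters was 0.74 and 0.77. PT S1 changed by -1.71 and -2.05, close to PT S3.

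As a fraction of all cells, PT S3 fell at each day when measured against all 6 Control libraries. In IRI short the change was -1.88 at 1 d (limma adjusted p = 0.000742), -2.12 at 3 d (adjusted p = 0.000233) and -1.34 at 14 d (adjusted p = 0.0122), and at each of these days 16.7% of the clusters fell. In IRI long it was -2.10 at 1 d (limma adjusted p = 0.000206), -2.50 at 3 d (adjusted p = 3.11e-05) and -1.66 at 14 d (adjusted p = 0.00157), where 16.7%, 27.8% and 38.9% of the clusters fell. The call at 14 d was lost when 1 library of that day was left out: without IRF8 the change in IRI short was -1.18 (limma adjusted p = 0.131), and without IRF9 that in IRI long was -1.32 (limma adjusted p = 0.0514). In IRI long at 14 d, where PT S1 changed by -2.31, the PT S3 value holds the library IRF12, whose PT S3 cells are described further down.

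Against norm5, the only Control library in barcode set B and assumed to vary like the other groups, the changes were smaller by more than 1 unit. They were -0.67 in IRI short (limma adjusted p = 0.207) and -0.98 in IRI long (adjusted p = 0.0601), and IRI long at 3 d (-1.39, limma adjusted p = 0.0235) was the single day past the threshold. The direction stayed the same in both groups and at all days. Set A holds no IRI library, so that the barcode set and the treatment cannot be told apart for the larger change against all Control libraries.

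The fraction of all cells also moves with every other cell type. The immune share was 10.8% ± 4.83 in Control, 48.9% ± 10.3 after short and 67.4% ± 14.5 after long ischemia (SD, n = 6 each). This share counts the cluster T cell_2 as immune, although 41.0% of its cells had a proximal tubule name in the second annotation. By the names of that annotation the mean immune share was 7.92% in Control, 35.8% after short and 51.8% after long ischemia. The values among non-immune cells below leave all T cell_2 cells out of the denominator. Fewer PT S3 cells, more immune cells and loss of cells in dissociation cannot be told apart in a fraction. Among non-immune cells alone PT S3 still fell by 1.18 in IRI short (limma adjusted p = 0.00164) and by 0.88 in IRI long (adjusted p = 0.0131). In percent of non-immune cells norm5 had 14.0%, against 13.4% ± 5.55 after short and 19.3% ± 15.8 after long ischemia (SD, n = 6 each), and the other Control libraries had 29.3 to 46.1%. Among the cells of the 6 tubule clusters (PT S1, PT S3, LOH, DCT, PC and IC) it fell by 1.01 in IRI short (limma adjusted p = 0.000466), while the change of -0.45 in IRI long did not pass the threshold (adjusted p = 0.0944). By day the call was lost at 14 d after short ischemia, with -0.70 of non-immune cells (limma adjusted p = 0.186) and -0.58 of tubule cells (adjusted p = 0.130), and of tubule cells also at 3 d after long ischemia (-0.74, limma adjusted p = 0.123). At 14 d after long ischemia the sign turned on both denominators, to 0.18 of non-immune cells (limma adjusted p = 0.725) and 0.45 of tubule cells (adjusted p = 0.434). There IRF12 had 49.1% of non-immune and 57.4% of tubule cells, and IRF9 24.1% and 30.7%, below the Control means of 32.8% and 34.2%.

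As a plain percentage of tubule cells, PT S3 ranged from 14.4 to 47.4% in Control with a median of 35.1%, from 9.62 to 22.2% in IRI short with a median of 16.5%, and from 10.0 to 57.4% in IRI long with a median of 22.5%. Both IRI short libraries at 1 d (11.7% in IRF2) and IRF11 at 3 d (9.62%) were the lowest of their group, and the remaining 3 lay between 21.3 and 22.2%. The difference between IRI short and Control was -18.1 percentage points (two-sided exact permutation test, p = 0.00866, adjusted p = 0.0433 over 15 tests). Against norm5 alone it was 1.70, of the opposite sign. It also lost its call when any 1 library other than norm5 was left out, with adjusted p-values up to 0.0866 from the exact test. After long ischemia the difference from Control was -7.93 (exact permutation test, p = 0.361, adjusted p = 0.678), and from norm5 alone 11.9 points, of the opposite sign. IRF12 had the highest share of all 18 libraries, 57.4% of 1172 tubule cells.

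Between the S1 and S3 clusters the balance differed little on average. The PT S3 share of PT S1 and PT S3 cells together was 59.0% ± 12.7 in Control, 60.1% ± 5.22 after short and 59.8% ± 15.7 after long ischemia (SD, n = 6 each). In Control it ran from 37.9% (norm5) over a median of 61.1% to 71.3% (norm4), and in IRI short from 52.9% (IRF11) over 61.2% to 67.9%. In IRI long it ran from 36.6% (IRF7) over 60.2% to 85.4% (IRF12), both extremes of the 18 libraries. The groups overlapped throughout. From Control the share differed by 1.19 percentage points after short and by 0.852 points after long ischemia, and between both ischemia times by -0.340 points (exact permutation tests, p = 0.859, 0.920 and 0.889, each adjusted p = 0.920). With 1 library left out in turn these differences ranged from -5.46 to 5.48 points. Against norm5 alone the share was higher by 22.3 points in IRI short and 21.9 points in IRI long, untested differences that rest on 1 library with 766 PT S3 and 1257 PT S1 cells.

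**Figure D2:**
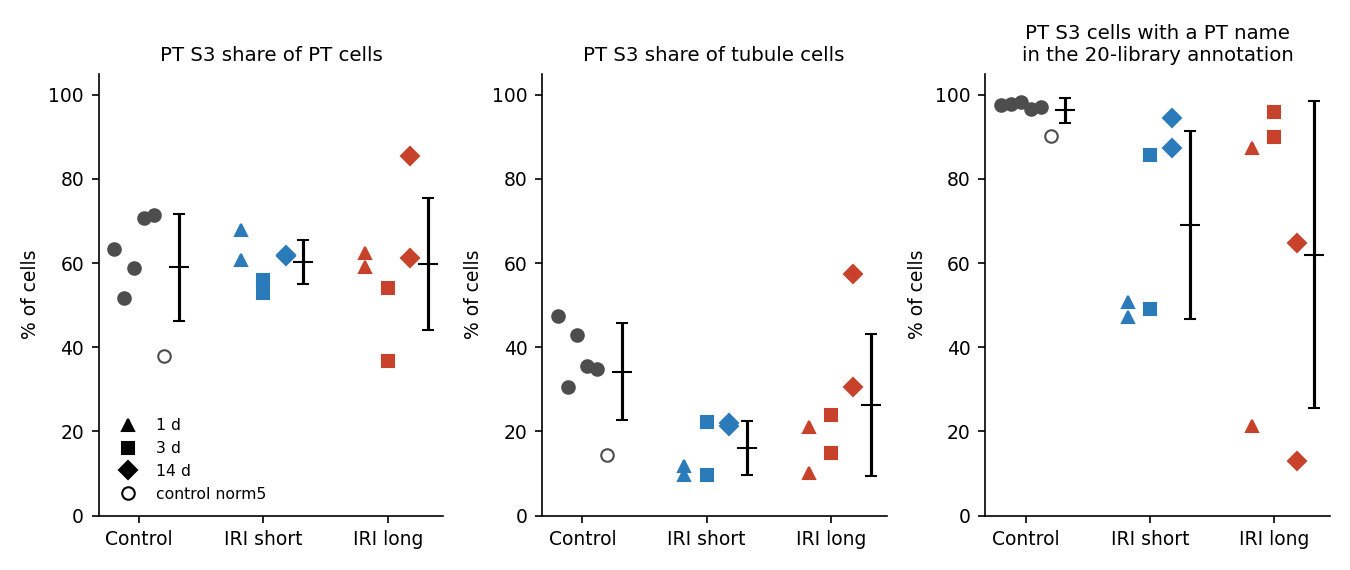
PT S3 cells as percent of PT S1 and PT S3 cells, as percent of tubule cells, and the percent of PT S3 cells with a PT name in the 20-library annotation (y axes, % of cells) for Control, IRI short and IRI long libraries. Each point is 1 library, its shape the day and the open circle norm5, and the black bars are mean and SD; the share of PT cells overlaps between all groups, while the percent with a PT name lies between 90.2 and 98.2 in Control and spreads from 13.1 to 95.8 in IRI long.

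Longer ischemia was compared with shorter ischemia directly. The PT S3 fraction of all cells differed by -0.31 on the logit scale (limma, 95% interval from -0.94 to 0.32, adjusted p = 0.523), in a comparison where 22.2% of the clusters were lower in IRI long. Day by day, 1 d gave a difference of -0.22, 3 d one of -0.39 and 14 d one of -0.31, with limma adjusted p-values of 0.930, 0.843 and 0.714, and 5.56%, 0% and 27.8% of the clusters were lower. These directions were not stable: without IRF3 the value at 3 d was 0.25, and without IRF9 that at 14 d was 0.0276. The sign also turned at 1 and 14 d among non-immune cells, and at each day among tubule cells (values under the dependence on processing). In the comparison at 3 d limma called 0 clusters, with 3 at an unadjusted p under 0.05. Of tubule cells, PT S3 took 10.2 percentage points more after long than after short ischemia (exact permutation test with labels exchanged within days, p = 0.0556, adjusted p = 0.157, smallest possible p = 0.00926), and 3.99 points more without IRF12.

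With time after ischemia the fraction was higher at 14 d than at 1 and 3 d in both IRI groups, within the spread between libraries. The difference was 0.65 in IRI short (95% interval from -0.30 to 1.60, limma adjusted p = 0.450), where 11.1% of the clusters fell, and 0.64 in IRI long (95% interval from -0.30 to 1.59, limma adjusted p = 0.306), where 22.2% fell. Of tubule cells alone the value in IRI long passed the threshold at 1.34 (limma adjusted p = 0.00215), in a fit that was not repeated without IRF12. Among all cells, where the difference was 0.64, it was 0.30 without IRF12. Among non-immune cells, and with a centred log-ratio in place of the logit, the value in IRI long was also larger than 0.64 (values under the dependence on processing). For the PST fraction of the 20-library annotation the sign turned in IRI long, to -0.26 (limma adjusted p = 0.613).

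The same cells have a second name in the annotation of 20 libraries, which the rule did not use. Of the 17210 PT S3 cells, 10248 (59.5%) were named PST (proximal straight tubule), 4350 (25.3%) PT and 444 (2.58%) PCT (proximal convoluted tubule), so that 87.4% kept a proximal tubule name. The remaining 2168 cells were spread over other names, led by DCT1 (distal convoluted tubule) with 1114 cells, the neutrophil clusters Neutro_1 and Neutro_2 with 69 and 259 cells, LOH (loop of Henle) with 240 cells and the joint cluster of distal tubule, connecting tubule and principal cells with 173 cells.

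In Control libraries nearly all PT S3 cells kept a PT name: 90.2% in norm5 and 96.7 to 98.2% in the other libraries, with a mean of 96.2% ± 3.00 (SD, n = 6). In IRI short the values were 50.7% at 1 d (IRF2), 49.0% and 85.6% at 3 d (IRF11, IRF3) and 87.4% and 94.5% at 14 d (IRF10, IRF8). In IRI long they were 87.2% and 21.2% at 1 d (IRF1, IRF5), 89.9% and 95.8% at 3 d (IRF4, IRF7) and 13.1% and 64.8% at 14 d (IRF12, IRF9). Libraries of the same day thus lay far apart in IRI short at 3 d and in IRI long at 1 and 14 d, and closer together in the other pairs. The means were 69.0% ± 22.3 after short and 62.0% ± 36.4 after long ischemia, against Control a difference of -27.2 and -34.2 percentage points (exact permutation tests, two-sided, p = 0.00433 and adjusted p = 0.0325 in both groups). Only the day 14 library IRF8 in IRI short and the day 3 library IRF7 in IRI long lay above norm5. Against norm5 alone the differences were -21.2 and -28.2 points, untested. Both calls were lost when any 1 Control library was left out, with adjusted p-values up to 0.130 and 0.162 in the exact test. Between IRI long and IRI short the difference of -7.03 points was within the spread (exact permutation test with labels exchanged within days, p = 0.713, adjusted p = 0.920). With 1 library left out it ranged from -13.8 to 2.75 points, and its sign turned without IRF5 or IRF12.

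For PT S1 cells the same percentage was higher than for PT S3 cells in 10 of 12 IRI and 4 of 6 Control libraries, a difference that was not tested. PT S1 cells kept a PT name in 97.5% ± 1.00 of cells in Control, 94.3% ± 4.58 after short and 92.1% ± 4.15 after long ischemia (SD, n = 6 each). In these 10 IRI libraries the margin ran from 4.15 points in IRF4 to 73.9 points in IRF12. In IRF8 and IRF7 the difference was -0.753 and -4.27 points.

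**Figure D3:**
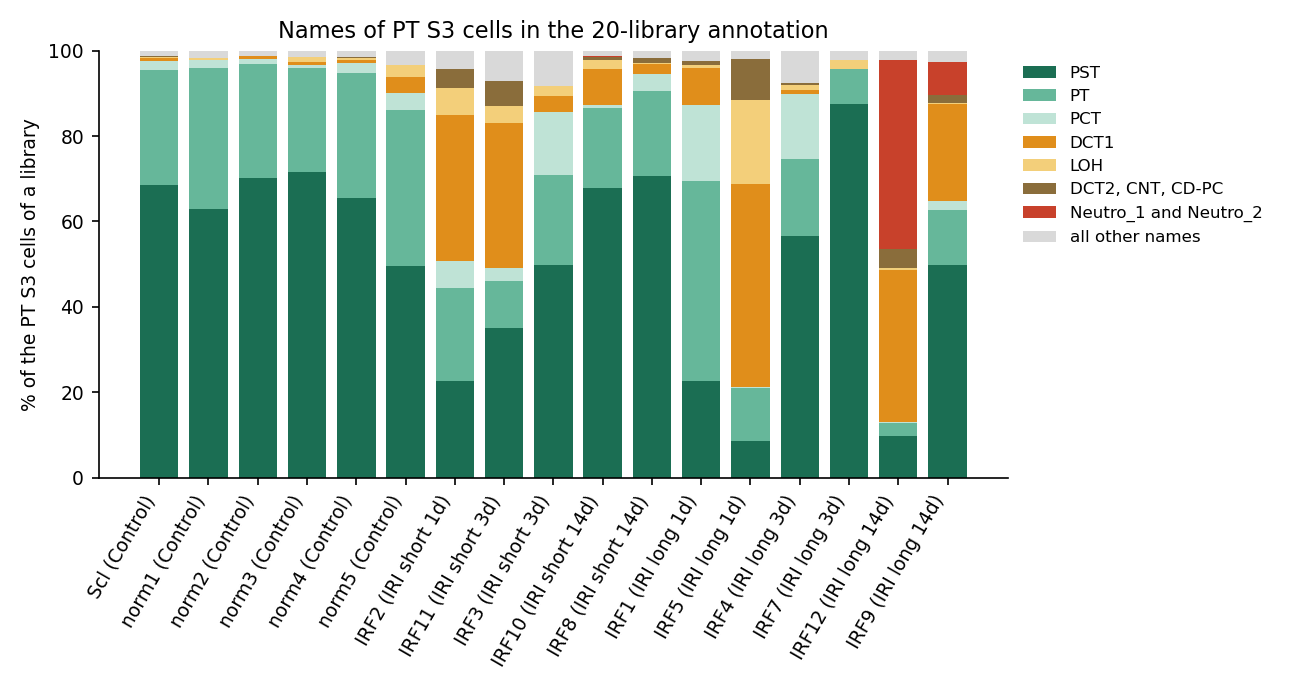
Names that the PT S3 cells of 17 libraries (x axis) have in the 20-library annotation, as percent of the PT S3 cells of the library (y axis), stacked to 100. PST and PT fill most of each Control bar, DCT1 takes 34.0 to 47.6% in IRF2, IRF11, IRF5 and IRF12, and neutrophil names 44.1% in IRF12.

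PST was the leading name of PT S3 cells in Control, at 64.7% ± 8.07, against 45.2% ± 21.0 after short and 39.1% ± 31.1 after long ischemia (SD, n = 6 each). In Control it ranged from 49.5% (norm5) to 71.5% (norm3), in IRI short from 22.6% (IRF2) to 70.7% (IRF8) and in IRI long from 8.48% (IRF5) to 87.5% (IRF7). The highest and the lowest of the 18 libraries thus both came from long ischemia. Neither difference from Control passed the threshold (-19.5 points, adjusted p = 0.195 and -25.6 points, adjusted p = 0.249, exact permutation tests).

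PCT, the name of the convoluted part, was rare except in IRF1 (17.7%), IRF4 (15.2%) and IRF3 (14.8%). The name PT was carried by 29.5% ± 4.57 of PT S3 cells in Control, 18.8% ± 3.94 after short and 17.0% ± 15.5 after long ischemia (SD, n = 6 each). IRF1, at 1 d after long ischemia, had 46.9%, more than any Control library. By first names the cluster PT of the second annotation is mixed. In the mean of the Control libraries 52.6% ± 10.2 of its cells came from PT S3, 37.4% ± 5.83 from PT S1 and 7.69% ± 6.95 from T cell_2, a cluster named here after its values were seen (SD, n = 6). After long ischemia the means were 14.3% ± 8.27, 23.2% ± 9.77 and 52.2% ± 24.2 (SD, n = 6), with T cell_2 between 7.43 and 70.8%. Over all libraries 41.0% of T cell_2 cells had a PT name, against 0.483% of T cell_1 cells. Which of their names is right was not tested. Of the cells named PST, PT S3 cells made up 87.7 to 95.5% in the Control libraries of set A but 50.3% in norm5. At 1 d they made up 23.5% in IRF2, 27.0% in IRF1 and 13.9% in IRF5, where LOH cells were 56.9%, 33.6% and 42.1% of the cells with this name. In norm5 LOH cells were 25.6% of them. PT S3 cells were also less than 50% of the cells named PST in IRF11 (37.6%), IRF7 (47.2%) and IRF12 (49.2%), and 63.4% in IRF9. These shares were not tested.

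DCT1 was, over all libraries together, the most frequent name of PT S3 cells outside the proximal tubule clusters. It did not lead in every library: both neutrophil names together were more frequent in IRF12, and other names in norm1, norm3, norm4, IRF3, IRF4 and IRF7. It was chosen for description after its values were seen and was not tested. In Control 0.187 to 3.52% of PT S3 cells bore it, with the highest value in norm5 and a median of 0.770%. In IRI short the values were 34.1% at 1 d (IRF2), 34.0% and 3.70% at 3 d and 8.32% and 2.49% at 14 d. In IRI long they were 8.85% and 47.6% at 1 d, 1.01% and 0% at 3 d and 35.7% and 22.7% at 14 d, where the 0 of 48 cells in IRF7 allows a share of up to 6.25% by the limit of 3 counts and 7.40% by the Clopper-Pearson interval. Both IRI short libraries at 14 d were thus under 10%, and both IRI long libraries at 14 d above 20%. Read from the other side, PT S3 cells were 240 of 283 cells named DCT1 in IRF12 (84.8%) but 83 of 225 in IRF9 (36.9%), and DCT cells of the first annotation were 9.89% and 41.8%. In Control libraries PT S3 cells were 0.971 to 16.8% of the cells named DCT1, with the highest value in Scl. PT S1 cells bore the name DCT1 in 0.422% ± 0.204 of Control, 0.996% ± 0.521 of IRI short and 1.76% ± 1.64 of IRI long cells (SD, n = 6 each).

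LOH and the joint distal cluster took fewer PT S3 cells. LOH was the name of 19.7% of PT S3 cells in IRF5, 6.45% in IRF2 and 0.656% in IRF1, which was also taken at 1 d, and of at most 4.00% in the libraries of 3 and 14 d and of Control. In IRF12 and IRF9, with many cells named DCT1, LOH was the name of 0.297% and 0.273%, within the Control range of 0.0785 to 2.87%. The joint distal cluster was the name of 9.70% in IRF5, 6.00% in IRF11, 4.61% in IRF12, 4.36% in IRF2 and 0.984% in IRF1, and of at most 1.91% in the other libraries of 3 and 14 d and of Control.

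Neutrophil names belonged to IRI long at 14 d almost alone. Of the 328 PT S3 cells so named, 297 came from IRF12 and 28 from IRF9, with 3 in the remaining 16 libraries. In IRF12 they were 44.1% of the PT S3 cells (95% Clopper-Pearson interval 40.3 to 48.0%) and in IRF9 7.65% (5.14 to 10.9%). These libraries also had the highest fractions of granulocyte clusters among all cells, 51.7% in IRF12 and 40.4% in IRF9, beside 19.6 to 32.8% in the other IRI long libraries and 11.3 to 20.0% in IRI short. In IRF12 neutrophil names were carried by 2.61% of 115 PT S1 cells and 1.04% of 192 LOH cells. The paper describes a maladaptive subcluster of proximal tubule cells that was nearly confined to later stages after long ischemia. Its gene signature correlated best with neutrophils and monocyte-derived macrophages. Whether granulocytes within the cluster or cells of that subcluster have a part in the PT S3 values of IRF12 was not tested. Of the 673 PT S3 cells of this library 297 had a neutrophil name, 240 the name DCT1 and 88 a PT name. Without IRF12 the percentage with a PT name was different from Control by -24.5 points in IRI long (exact permutation test, adjusted p = 0.0325).

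In the authors' 18-library UMAP, PT S3 cells formed an elongated island. Their median UMAP_2, a coordinate without unit, lay at opposite ends for different second names: at -0.79 for cells named PST and -1.74 for PCT, against 3.24 for PT, 3.84 for DCT1, 3.40 for Neutro_2 and 3.22 for LOH. Of all PT S3 cells 220 (1.28%) lay outside this island, at UMAP_1 above -5, with 0.446 to 4.17% in IRI libraries and 5.87% in norm5. The median UMAP_2 was between -0.26 and 0.13 in the Control libraries of set A and 1.10 in norm5. In IRI short it was 3.18 at 1 d (IRF2), 2.55 and -0.17 at 3 d and -0.18 and -0.29 at 14 d. In IRI long it was 2.14 and 3.43 at 1 d, 0.09 and -0.35 at 3 d and 3.36 and 0.82 at 14 d. At 1 d after ischemia all 4 libraries thus lay above every Control library, and at 14 d after short ischemia both medians were negative. These medians are a description without a test, since they were picked after the values were seen and the clusters were made from the same cells.

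The neighbours of PT S3 cells in this map are a description, because the clusters and the map were made from the same integrated data, which nearly fixes the share of PT S3 cells among them. Of the 30 nearest cells to a PT S3 cell, 91.8% ± 3.31 were PT S3 cells in Control, 91.2% ± 2.16 after short and 92.7% ± 3.03 after long ischemia (SD, n = 6 each). The lowest library was norm5 at 85.6% and the highest IRF12 at 97.0%. PT S1 was the single other cluster above 2%, with 5.83%, 6.20% and 4.97% of the neighbours. Over all PT S3 cells, 763 (4.43%) had fewer than 50% PT S3 cells among these neighbours.

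In the 20-library map the same cells were less closely grouped. The percentage was 78.1 ± 5.73 in Control, 63.2 ± 14.3 after short and 59.6 ± 20.7 after long ischemia (SD, n = 6 each). The differences of -14.9 and -18.5 points from Control did not pass the threshold (exact permutation tests, adjusted p = 0.130 and 0.172). Norm5 had 67.2%, the lowest of Control and nearer to both IRI means than the libraries of set A, which had 77.6 to 83.4%. By second name the mean was 88.2% for PST, 66.1% for PT, 37.7% for DCT1, 39.9% for Neutro_2 and 4.98% for Neutro_1, although in the 18-library map these groups had means of 92.3 to 99.3%.

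**Figure D4:**
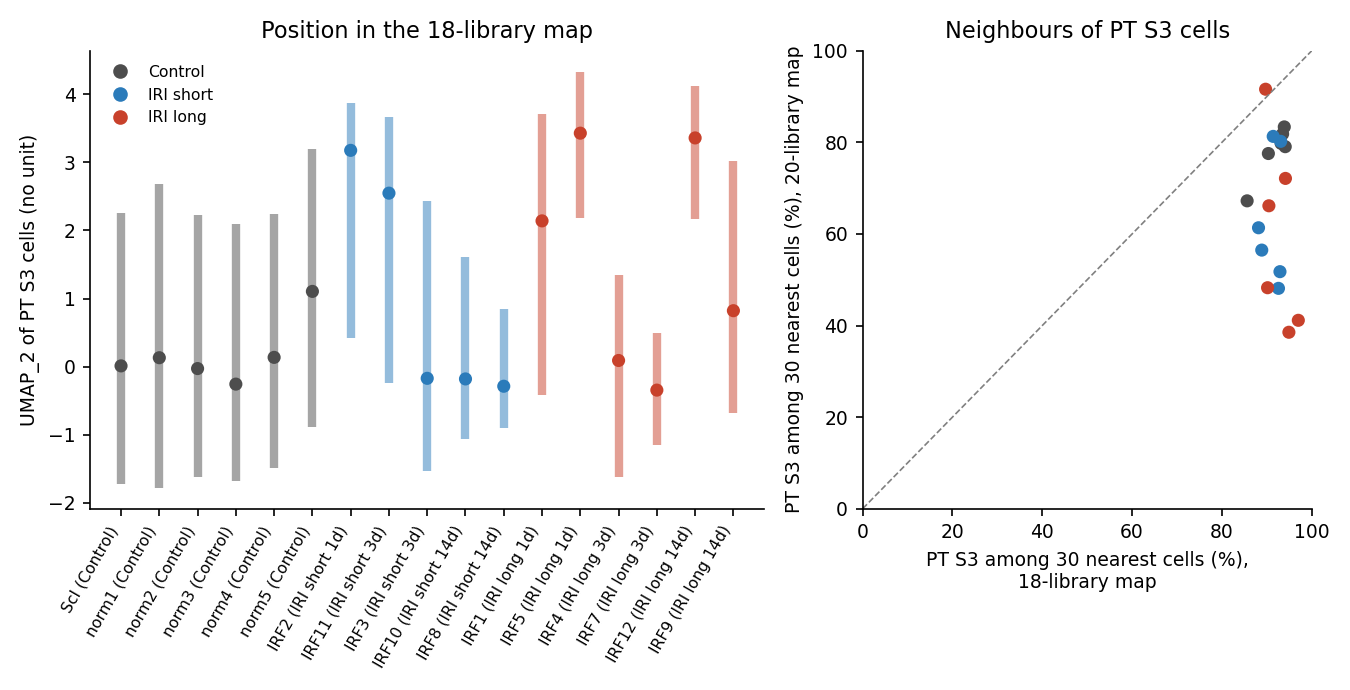
Left, UMAP_2 of PT S3 cells in the 18-library map (y axis, no unit) for 17 libraries (x axis), with medians as points and the middle 50% of cells as bars. Right, percent of PT S3 cells among the 30 nearest cells of PT S3 cells in the 18-library map (x axis) and the 20-library map (y axis), each point a library and the dashed line equality: 17 of 18 libraries lie below the line, IRF7 (89.7 and 91.6%) being the exception.

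Within the cluster, PT S3 cells of IRI libraries were compared with those of Control libraries by their nearest PT S3 cells in other libraries, after thinning each library to 48 PT S3 cells. Among the 15 nearest, Control cells were 35.6% ± 4.16 for Control libraries, 29.9% ± 5.14 for IRI short and 29.3% ± 3.10 for IRI long (SD, n = 6 each). Equal mixing would give 29.4% for a Control library, which has 5 other Control libraries, and 35.3% for an IRI library, so that the order of the groups is the reverse of mixing. The differences were -5.65 points in IRI short (exact permutation test, p = 0.0628, adjusted p = 0.157) and -6.25 points in IRI long (p = 0.0238 from the exact test, adjusted p = 0.0893), and neither passed the threshold after adjustment. The exact test takes equal values in both groups as its null, whereas equal mixing would put IRI libraries above Control libraries. Its p-values here therefore do not measure the distance from equal mixing. The lowest IRI libraries were IRF2 (24.5%), IRF11 (24.8%) and IRF5 (24.9%), and IRF3 (36.0%) and IRF8 (34.4%) were near equal mixing. Norm5 had 27.5%, the lowest of Control, and against it alone the differences were 2.45 and 1.85 points, where equal mixing would put an IRI library at 35.3% and a Control library at 29.4%. Without norm5 the difference in IRI long passed the threshold at -7.87 points (exact permutation test, adjusted p = 0.0216). In the 20-library map the differences were -13.8 and -15.9 points and passed the threshold (exact permutation tests, adjusted p = 0.0216 and 0.0325). In that map norm5 had 35.2%, again the lowest of Control, against means of 28.8% in IRI short and 26.7% in IRI long.

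The inhibitor libraries have no PT S3 names, because they are in the second annotation only. In that annotation cells named PST were 26.7% of 10610 cells with VX765 (95% Clopper-Pearson interval 25.9 to 27.6%) and 41.6% of 12605 cells with Liproxstatin (40.8 to 42.5%). In the IRI long libraries at 14 d without inhibitor they were 1.87% (IRF12) and 3.97% (IRF9), and in Control from 11.3% (norm5) to 30.9% (Scl). The VX765 library thus lay within the Control range, and the Liproxstatin library above every other library. Both lay above norm5, the only Control library of their barcode set. The share of PST among the names PST, PT and PCT was 45.4% with VX765 and 50.4% with Liproxstatin, within the Control range of 32.4 to 54.7% and above the 36.7% of IRF12 and 35.4% of IRF9. Immune names made up 11.8% and 5.13% of these libraries, beside 75.2% in IRF12 and 64.5% in IRF9. Among non-immune cells PST was 30.3% with VX765 and 43.9% with Liproxstatin, against 7.56% and 11.2% in IRF12 and IRF9. In Control it ran from 12.9% (norm5) to 32.4% (Scl).

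PT S3 was also estimated for these libraries by the first name most common among the 30 nearest cells of other libraries in the 20-library map. The estimate was 34.9% with VX765 and 50.6% with Liproxstatin. In the libraries where PT S3 is known, the estimate found 75.3 to 92.6% of the PT S3 cells of a Control library, but 70.5% in IRF9 and 13.5% in IRF12. Of the cells estimated as PT S3, 85.4 to 96.6% had this name in the Control libraries of set A, but 54.4% in norm5, 51.0% in IRF9 and 49.7% in IRF12. The inhibitor mice belonged to another set of experiments with its own vehicle group, and the labels do not say that the mice of IRF12 and IRF9 received vehicle, so that inhibitor, injection and experiment cannot be told apart. With 1 library for each inhibitor there is no replicate check, and no test was made.

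**Figure D5:**
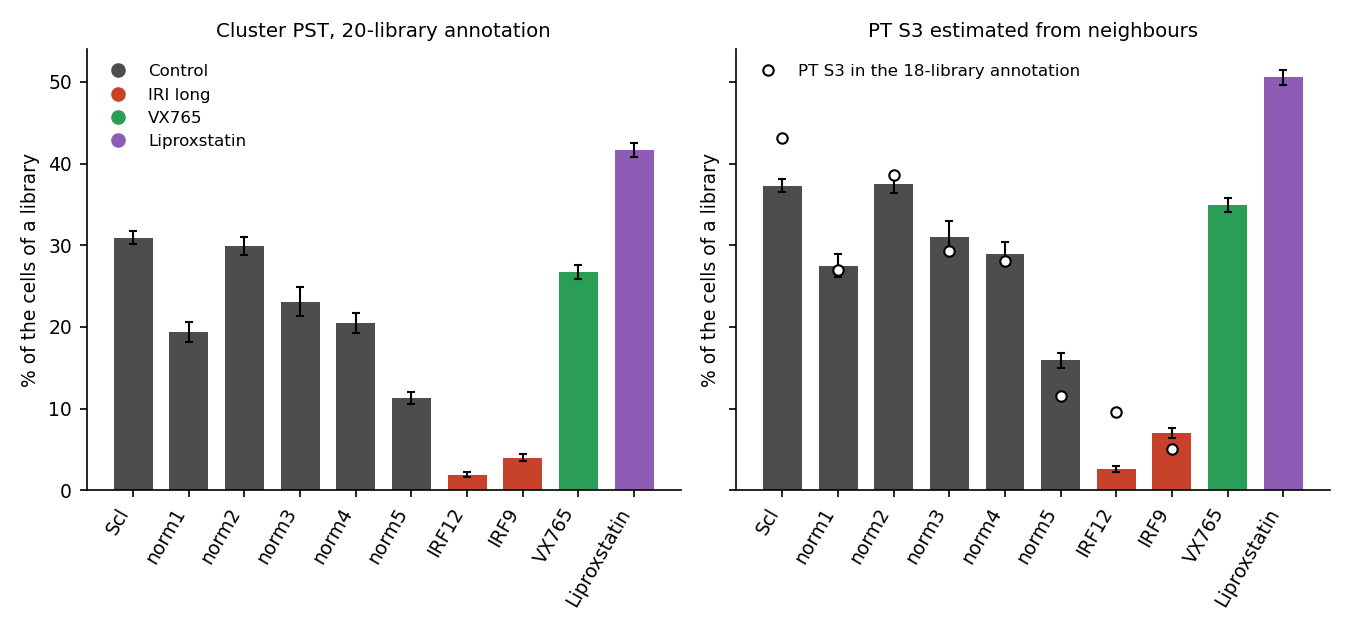
Left, cells named PST in the 20-library annotation, and right, PT S3 cells estimated from neighbours, both as percent of the cells of a library (y axes) for Control, IRI long 14d and the inhibitor libraries (x axes). Bars carry exact 95% binomial intervals and open circles are the PT S3 fraction of the 18-library annotation; both inhibitor bars lie far above IRF12 (1.87% PST) and IRF9 (3.97% PST).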

How the data were processed

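Single-cell suspensions of mouse kidneys were sequenced as 10x 3' libraries, aligned with Cell Ranger, filtered by genes and mitochondrial reads per cell, integrated with LIGER, clustered and freed of called doublets by the authors. The filters removed cells above a limit of mitochondrial reads, which the authors set in view of the many such reads in proximal tubule cells. The authors deposited, per cell, a cluster name, a treatment label and UMAP coordinates, which are a score without unit, for 18 libraries and again for 20; how the second annotation was made is only briefly given, and the study states fewer cells for it than the deposited files hold. Counts were not analysed here. The members and lists were chosen with earlier results of these data known.

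Libraries were told apart by the prefix of the cell name and could be tied to a group and day but not to a replicate number. Per the labels, 6 mice had each ischemia time, as many as there are libraries, but which mouse gave which library is not stated, so p-values measure the spread between libraries. Fractions (0.5 cells added, logit) were fitted with limma 3.58.1 (R 4.3.3) over 18 clusters and 7 groups, with Benjamini-Hochberg adjustment within a comparison and a threshold of 0.05. Shares and neighbour measures were tested by two-sided exact permutation of libraries (smallest p 0.00216 for 6 against 6), adjusted over 15 tests. Neighbours were the 30 nearest cells in the UMAP, or the 15 nearest PT S3 cells of other libraries, as the mean of 20 seeded draws. Python 3.11.15, numpy 2.4.6, pandas 2.3.3, scipy 1.17.1 and matplotlib 3.10.9 were used, and the limma script was tested on simulated data. Named are PT S3, the other tubule clusters, every second name held by 5% or more of the PT S3 cells overall or in a group, and every cluster with 2% or more of the neighbours. LOH, the joint distal cluster, neutrophil names and T cell_2, where they fall outside this rule, were chosen after their values were seen. Alternatives were other transformations, denominators, neighbour numbers, the 20-library annotation and map, barcode set as a term and leaving out each library; norm5 alone as Control was added after seeing the data. The values of 1 IRI short library taken alone are not reported here, while group values include it.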

Additional observations from a re-analysis of the deposited data

Results flagged for a closer look

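Among 33 groups of 6 libraries tested, 8 held a library separated from its nearest neighbour by a gap above Dixon's 95% critical value for the range of the group. For 6 independent, normally distributed values chance gives this in about 1 in 20 groups. That rate does not hold here, since several measures are percentages of the same cells and the IRI groups mix days. The Control library norm5 stood apart in 4 measures. It had 90.2% of PT S3 cells with a PT name (nearest library 96.7%), 27.5% Control cells among the nearest PT S3 cells (35.8%), 3.52% of PT S3 cells named DCT1 (0.792%) and a median UMAP_2 of 1.10 (0.13). In IRI short, IRF11 had 11.0% of PT S3 cells named PT (nearest library 18.8%). In IRI long, IRF1 had 46.9% (nearest library 18.2%). Neutrophil names reached 44.1% of PT S3 cells in IRF12 (nearest library 7.65%). In Control, norm4 held the single PT S3 cell with a neutrophil name, 0.0878% of that library, while the others held none, so that 1 cell was enough to set it apart.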

How the results depend on the processing

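With all libraries kept, 94 of 131 values under another transformation, denominator, neighbour number, map or annotation, or with the barcode set as a term, kept their direction and their side of the threshold, as did 386 of 432 values with 1 library left out. In the limma fits each of the 18 libraries was left out of every comparison, including comparisons that do not use it. For those the direction was fixed in advance, and only the shared spread could move the p-value. The count of 386 therefore overstates how stable the directions are. The cause of a change was not tested. The number of PT S3 cells, 48 in IRF7, limits shares within a library. No paired analysis was possible because the cell names carry no replicate number of the sample labels.

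Logit values of the fraction changed as follows. Of non-immune cells, long against short was 0.30, and by day 0.0340 at 1 d and 0.88 at 14 d. Against Control it lost its call at -0.70 at 14 d after short and was 0.18 at 14 d after long ischemia, and 14 d against earlier days in IRI long was 1.58. Of tubule cells, the call was lost for long (-0.45), short 14 d (-0.58) and long 3 d (-0.74) against Control, and long against short was 0.56 (0.37, 0.30 and 1.03 at 1, 3 and 14 d), long 14 d 0.45 and 14 d against earlier days in IRI long 1.34. With the centred log-ratio, long against short at 14 d was 0.0540 and the last comparison 1.14. In the 20-library annotation, long against short at 3 d was 0.18 and the last comparison -0.26. With the barcode set as a term, and equally against norm5 alone, the values lost their call at -0.67 (short), -0.98 (long), -0.77, -1.01 and -0.23 (short at 1, 3 and 14 d), and -0.99 and -0.55 (long at 1 and 14 d).

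The PT S3 share of PT cells against norm5 alone was 22.3 points in IRI short and 21.9 in IRI long. It was -0.0393 in IRI long as PST share of the 20-library annotation, and 0.0369 for long against short on the logit scale. The share of tubule cells in IRI short was -1.01 on the logit scale (exact test, adjusted p = 0.0758) and 1.70 points against norm5, which gave 11.9 in IRI long. The percentage with a PT name was -19.5 and -25.6 for PST alone, and -21.2 and -28.2 against norm5. PT S3 neighbours were 5.56 and 7.12 against norm5, and -18.5 (long against Control) and -3.57 (long against short) in the 20-library map. Control neighbours were -13.8 and -15.9 in that map, 2.45 and 1.85 against norm5 (still below the difference under equal mixing), and in IRI long -8.58 among the 5 nearest and -7.20 without norm5 among the neighbours.

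With 1 library left out, the share of PT cells ranged from -3.03 to 3.67 (short), -4.27 to 5.48 (long) and -5.46 to 4.29 (long against short), turning without norm1, norm5, IRF12, IRF8, IRF4 or IRF7, among others, in 1 or more of these. The share of tubule cells in IRI short ranged from -22.1 to -15.5. The percentage with a PT name ranged from -32.3 to -22.8, -41.0 to -24.5 and, turning without IRF5 or IRF12, -13.8 to 2.75. PT S3 neighbours ranged from -1.83 to 0.00487 (without IRF3) and -0.269 (without norm5) to 1.57. Control neighbours ranged from -7.87 to -5.38 in IRI long and from -1.69 to 0.622 for long against short, turning without IRF3, IRF10, IRF8 or IRF5. The fraction ranged from -1.57 to -1.18 (short 14 d, lost without IRF8), -1.998 to -1.32 (long 14 d, lost without IRF9), -1.02 to 0.25 (long against short at 3 d, turned without IRF3) and -0.65 to 0.0276 (at 14 d, turned without IRF9).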
